A study of Mus musculus with 4 samples.

Results

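The 10 genes described here encode molecules studied in the restraint of T cells by myeloid cells. They are Cd274 and Pdcd1lg2, Tgfb1, Ido1, Entpd1 and Nt5e, Cd244a, and the galectins Lgals9, Lgals1 and Lgals3. They were chosen by name, as the probe sets annotated with a single one of these symbols, out of 18193 genes so named. Together they had 17 probe sets, and 5 of the 10 genes had more than 1. The arrays, 1 per sample, measured gene expression in 2 samples of G-MDSC, the granulocytic kind of myeloid-derived suppressor cell, and 2 samples of neutrophils, on Affymetrix chips. The G-MDSC were CD11b+Ly6G+Ly6Clow cells that microbeads against Ly6G had selected from the spleens of female C57BL/6 mice, 3.5 weeks after EL4 lymphoma cells had been placed under the skin. The neutrophils came from the peritoneum of female C57BL/6 mice given 2 injections of 1.5 ml of 12% casein, a milk protein that provokes inflammation, 16 h apart. They were washed out 3 h after the last injection, depleted of F4/80-positive cells and selected for Ly6G. Cell kind, tissue, tumour, casein and sorting steps therefore cannot be told apart. Whether samples of 1 group came from separate mice or pools is not given in the labels, so p-values cover the spread among these samples alone, part or all of which may be technical.

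PD-L1 (Cd274) and PD-L2 (Pdcd1lg2) bind PD-1 on T cells and dampen signalling through the T cell receptor. TGF-beta 1 acts through SMAD proteins, IDO1 breaks down tryptophan to kynurenines, and CD39 (Entpd1) and CD73 (Nt5e) act in sequence to turn extracellular ATP into adenosine. 2B4 (Cd244a) is a receptor of the SLAM family whose ligand is CD48, and galectins bind sugar chains on the surface of T cells. G-MDSC are known for restraining T cells in tumour-bearing mice, and these molecules are among those studied for that role.

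Promoters of 8 of the 10 genes were taken from RefSeq's table (GRCm38.p6, 250 bases before to 50 after the gene's start), with 2 windows for Entpd1. Lgals1 and Ido1 were not among them. Those of Cd274, Pdcd1lg2 and Cd244a are printed, since the first pair are the PD-1 ligands, both lower in G-MDSC, and the last is the gene that was higher. Capitals mark matches to the motifs GAAANNGAA (IRF-type), TTCNNNGAA (STAT-type) and TGANTCA (AP-1-type), searched on both strands.
Cd274, chr19:29367188-29367487, + strand: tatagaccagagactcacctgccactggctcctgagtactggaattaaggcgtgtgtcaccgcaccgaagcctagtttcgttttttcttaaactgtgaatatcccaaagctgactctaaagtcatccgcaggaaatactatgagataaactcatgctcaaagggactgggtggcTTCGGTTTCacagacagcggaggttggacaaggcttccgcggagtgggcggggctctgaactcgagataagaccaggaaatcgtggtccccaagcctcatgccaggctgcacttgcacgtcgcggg
Pdcd1lg2, chr19:29410669-29410968, + strand: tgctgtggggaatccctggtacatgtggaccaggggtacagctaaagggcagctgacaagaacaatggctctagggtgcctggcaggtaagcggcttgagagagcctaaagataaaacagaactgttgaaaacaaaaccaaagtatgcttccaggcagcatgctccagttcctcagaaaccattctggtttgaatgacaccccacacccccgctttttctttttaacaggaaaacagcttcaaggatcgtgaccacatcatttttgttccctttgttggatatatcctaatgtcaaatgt
Cd244a, chr1:171558943-171559242, + strand: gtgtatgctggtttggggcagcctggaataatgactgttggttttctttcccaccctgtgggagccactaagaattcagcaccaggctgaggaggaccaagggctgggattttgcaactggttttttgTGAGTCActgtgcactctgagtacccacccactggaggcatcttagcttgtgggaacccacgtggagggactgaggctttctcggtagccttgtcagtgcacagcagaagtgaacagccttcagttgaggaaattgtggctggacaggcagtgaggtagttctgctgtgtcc
Cd274 and Pdcd1lg2 are neighbouring genes on chromosome 19. The capitals in the Cd274 window are 1 IRF-type match, on the opposite strand, whose first printed base lies 76 bases before the start. Those in the Cd244a window are 1 AP-1-type match that begins 122 bases before the start, and the Pdcd1lg2 window held none of these letters. Lgals9 held 2 IRF-type matches, and the windows of Tgfb1, Nt5e, Lgals3 and Entpd1 held no match to the 3 motifs. The IRF-type motif was in 8.56% of 32851 promoters of this length, the STAT-type in 8.30% and the AP-1-type in 7.81%.

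The values deposited are signal intensities on a linear scale, which were compared between groups for 1 probe set at a time. A gene was tested if at least 2 of the 4 arrays had a probe set of it above the array's 40th percentile, and its brightest such probe set stood for it. Differences are G-MDSC minus neutrophils on the log2(signal + 16) scale, which understates changes of dim genes, from limma with Benjamini-Hochberg adjustment over 13139 genes. A gene was called at an adjusted p under 0.05. The arrays had medians of 75.8 and 80.7 for the G-MDSC samples and 83.3 and 178 for the neutrophil samples. The 40th percentile of neutrophils replicate 2 was 133, against 45.7 to 52.6 in the other arrays, so that array stood apart among dim genes. The median gene lay 0.18 lower in G-MDSC.

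All 12 measured neutrophil markers were above the 40th percentile of all 4 arrays. So were 18 of 21 macrophage markers and 9 of 9 monocyte markers, so this measure does not tell cell types apart. The neutrophil markers were not at the same level in the groups: 5 of the 12 were called higher and 0 lower in G-MDSC. By sign, 8 lay above 0 and 4 below. Their summed signals were 322332 and 379685 in the G-MDSC arrays against 229154 and 272933 in the neutrophil arrays. Those called were the granule protein genes Camp (5.10 ± 0.37), Ltf (4.38 ± 0.44) and Ngp (2.54 ± 0.44), with Ceacam10 (2.58 ± 0.31) and the chemokine receptor gene Cxcr2 (1.24 ± 0.34; log2, SE). Camp had 30456 and 30837 in the G-MDSC arrays against 1277 and 600 in the neutrophil arrays. For Ltf these were 30447 and 29703 against 2483 and 822, and for Ngp 37700 and 45624 against 12057 and 4184. The brightest in the neutrophil arrays, S100a8 (-0.31 ± 0.34), S100a9 (-0.45 ± 0.34) and Lcn2 (-0.12 ± 0.32), were not called. Ly6g was not analysed here, and Itgam, which encodes CD11b, differed by -0.08 ± 0.31 (log2, SE), a sign that turned under median scaling. Markers of other cells moved with the groups too. Of 21 macrophage markers tested 12 were lower and 1 higher in G-MDSC, and 1 of them, Spic, was dim in both neutrophil arrays. Their summed signals were 53821 and 55073 in the G-MDSC arrays against 90072 and 141840 in the neutrophil arrays. Such sums weigh the brightest markers most. Lyz1, which was not called, had 30912 and 33522 in the G-MDSC arrays against 30501 and 49976 in the neutrophil arrays. Adgre1, the F4/80 antigen, had signals of 817 and 643 in the G-MDSC arrays against 4847 and 7136 in the neutrophil arrays. The sums of 9 monocyte markers were 33439 and 47799.7 in the G-MDSC arrays against 87505 and 111854 in the neutrophil arrays, and 6 were lower. Of these sums, Cd14, which was not called, made up 22408 and 31967 in the G-MDSC arrays against 42272 and 63587 in the neutrophil arrays. The sums of 12 dendritic cell markers were 24269 and 25521 in the G-MDSC arrays against 57979 and 75085 in the neutrophil arrays. Of the 12, 6 were lower: Cd209a, Ccr7 and the MHC class II pathway genes H2-Aa, H2-Ab1, H2-Eb1 and Cd74. Cd74 made up 9579 and 9898 of the sums in the G-MDSC arrays against 21504 and 29307 in the neutrophil arrays. Those not called ran from -1.29 (Xcr1) to 0.38 (Flt3), with Itgax at -0.28. Xcr1 was dim in both G-MDSC arrays. The 12 mast cell and basophil markers summed to 20053 and 22622 in the G-MDSC arrays and 41395 and 31145 in the neutrophil arrays. Most of each sum was Hdc (15256 and 18052 against 24350 and 24016), which was not called. Of 11 tested, 5 were lower and 1 higher. Mcpt4, Cma1, Tpsb2, Tpsab1 and Mrgprb1 were dim in both G-MDSC arrays. The first 3 were called lower but passed the filter only through the neutrophil arrays. Mrgprb1 was not called and Tpsab1 was not tested. The higher marker, Mcpt8, was dim in both neutrophil arrays and passed only through the G-MDSC arrays. The sums of 13 B and plasma cell markers ran the other way. They were 48959 and 37525 in the G-MDSC arrays against 20454 and 19049 in the neutrophil arrays. Ighm made up 25658 and 20555 of them in the G-MDSC arrays against 13241 and 8576 in the neutrophil arrays. Of 12 tested, 4 were higher (Jchain, Igha, Ighm and Cr2) and 1 was lower (Sdc1). Those not called ran from -0.46 (Cd79b) to 1.16 (Fcer2a), among them Ms4a1 (0.096), Pax5 (-0.44), Blk (-0.09) and Cd79a. Tnfrsf17 was dim in both neutrophil arrays and was not tested. The 16 T and NK cell markers summed to 3182.5 and 1774 in the G-MDSC arrays against 3277 and 3475 in the neutrophil arrays, with 1 higher and 2 lower, and Cd4 and Cd8b1 were dim in both groups. The part of these marker differences in the results below was not tested. In such bulk samples fewer cells of a type and less RNA per cell cannot be told apart.

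Of the 10 genes, 9 passed the filter on low signals, and 5 of these were called. Cd244a was higher in G-MDSC, and Cd274, Pdcd1lg2, Tgfb1 and Lgals1 were lower. Entpd1, Nt5e, Lgals9 and Lgals3 did not pass the threshold, and Ido1 was too dim to be tested. Over all genes tested, 16.4% were called, 8.3% higher and 8.05% lower in G-MDSC. The arrays of the groups did not overlap for 8 of the 9 genes, against 59.5% of all genes tested. The median difference of the 9 was -0.81, against -0.18 for all genes tested.

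**Figure D1:**
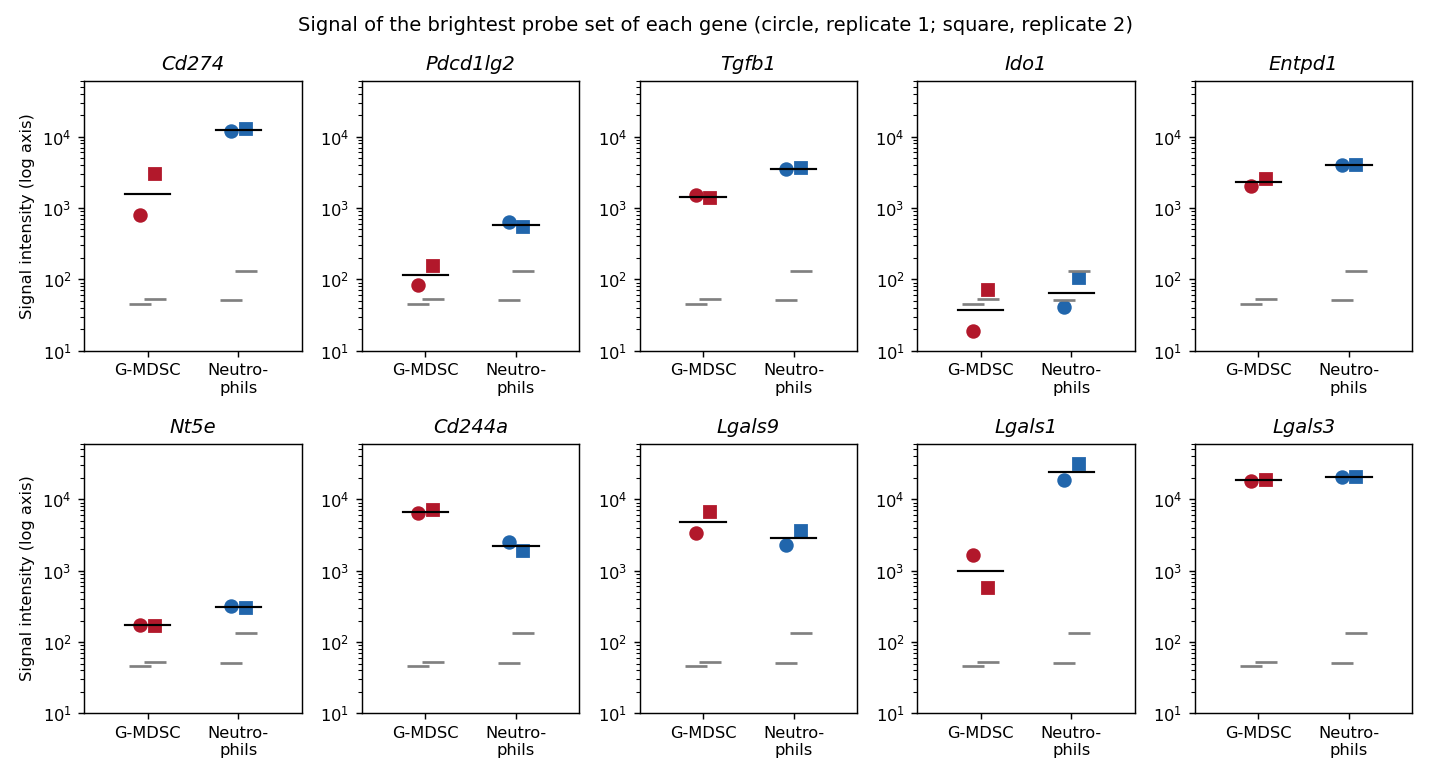
Signal intensity (log axis) of the brightest probe set of each of the 10 genes, with G-MDSC in red on the left and neutrophils in blue on the right, circles for replicate 1 and squares for replicate 2. Black bars are group means of the log values and grey ticks are each array's 40th percentile. Lgals1 lies between 571 and 1674 in the G-MDSC arrays against 18445 and 31164 in the neutrophil arrays, while the 4 points of Lgals3 lie between 18301 and 20625.

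Both ligands of PD-1 were lower in G-MDSC. Cd274 had signals of 799.6 and 2994 in the G-MDSC arrays against 11873 and 12822 in the neutrophil arrays. The neutrophil arrays were close together, the G-MDSC arrays were far apart, and the groups did not overlap. The log2 difference was -2.98 ± 0.49 (SE, n = 2 in each group; limma adjusted p = 0.00232), which is 7.88-fold lower with a 95% interval of 3.72-fold to 16.7-fold. Because the G-MDSC arrays differed, it was 4.10-fold lower without G-MDSC replicate 1 and 15.1-fold lower without G-MDSC replicate 2, and called in both cases. Of all genes tested, 191 had a lower difference than Cd274.

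Pdcd1lg2 had signals of 83.25 and 156 in the G-MDSC arrays against 626 and 535 in the neutrophil arrays. Every array was above its own 40th percentile and the groups did not overlap. The difference was -2.19 ± 0.42 (SE, n = 2 in each group; limma adjusted p = 0.00521), or 4.55-fold lower (95% interval 2.40-fold to 8.61-fold). Without G-MDSC replicate 1 it was -1.79 and the call was lost (adjusted p = 0.076). Of the G-MDSC arrays, replicate 2 was the higher for both ligands.

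Most called genes among other checkpoint molecules were also lower in G-MDSC. Of 35 further ligands and receptors listed, 26 were tested, and 8 were lower and 1 higher in G-MDSC. The median difference was -0.53 against -0.18 for all genes tested. Across the 6 related lists, 25% (TGF-beta) to 46.2% (SLAM) of the genes tested were called, against 16.4% of all genes tested. The lists were chosen with earlier results of these data known, and no set test was run. The list was not split into molecules that restrain and that stimulate T cells. At an unadjusted p under 0.05 there were 9 below 0 and 4 above 0. Of those above 0, Ceacam1 (0.90), Pirb (0.95) and Cmtm6 (0.68) were not called. Pvr, which encodes CD155, the ligand of TIGIT and CD226, had signals of 69.4 and 74.1 in the G-MDSC arrays against 595 and 852 in the neutrophil arrays, a difference of -3.05 ± 0.41. Cd80, a ligand of CD28 and CTLA-4, had 342 and 681 in the G-MDSC arrays against 4392 and 2173 in the neutrophil arrays, a difference of -2.64 ± 0.42. Ctla4 itself, a receptor best known on T cells, had 117 and 55.4 in the G-MDSC arrays against 592 and 456 in the neutrophil arrays (-2.46 ± 0.46). The gene that rose was Vsir, which encodes VISTA, an inhibitory molecule of myeloid cells. It had 9438 and 9469.7 in the G-MDSC arrays against 4146 and 1584 in the neutrophil arrays, a difference of 1.88 ± 0.41. Its size depended on the neutrophil arrays, at 2.57 without replicate 1 and 1.19 without replicate 2. Pdcd1, the PD-1 gene, was dim in both G-MDSC arrays and was not tested.

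Tgfb1 was lower in G-MDSC by both of its probe sets. The brighter had signals of 1499 and 1364 in the G-MDSC arrays against 3512 and 3598 in the neutrophil arrays, with little spread in either group and no overlap. The difference was -1.30 ± 0.29 (SE, n = 2 in each group; limma adjusted p = 0.0119), or 2.47-fold lower (95% interval 1.58-fold to 3.87-fold). The dimmer had 193 and 159 in the G-MDSC arrays against 861 and 412 in the neutrophil arrays, a difference of -1.68 ± 0.43 when each probe set was fitted separately (adjusted p = 0.0345). The call was lost without G-MDSC replicate 1 (-1.37, adjusted p = 0.079), without G-MDSC replicate 2 (-1.24, adjusted p = 0.134) and with median scaling (-1.13, adjusted p = 0.0599).

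Of 32 other genes of the TGF-beta pathway, 24 were tested, and 5 were lower and 1 higher in G-MDSC. The median was -0.35, against -0.18 for all genes tested. Thbs1, thrombospondin 1, which can activate latent TGF-beta, had 255 and 340.1 in the G-MDSC arrays against 21680 and 18241 in the neutrophil arrays, a difference of -6.00 ± 0.31. Tgif1, a co-repressor that binds SMADs, had 302 and 875 in the G-MDSC arrays against 1653 and 4152 in the neutrophil arrays (-2.31 ± 0.52). Its difference was -1.57 and -3.05 without G-MDSC replicates 1 and 2, and -2.97 and -1.65 without neutrophils replicates 1 and 2. Pmepa1, a gene that TGF-beta induces, had 55.0 and 67.1 in the G-MDSC arrays against 342 and 237 in the neutrophil arrays, a difference of -1.97 ± 0.52. The call was lost without G-MDSC replicate 1 (adjusted p = 0.22), without G-MDSC replicate 2 (0.144), with no filter (0.0782), with quantile normalization (0.107) and with the median of probe sets (0.0928). The gene that rose was Acvrl1, the type I receptor ALK1, with 1542 and 1003 in the G-MDSC arrays against 332 and 369 in the neutrophil arrays (1.78 ± 0.35), which did not pass without G-MDSC replicate 1 (adjusted p = 0.138). The receptors Tgfbr1 and Tgfbr2 differed by 0.54 ± 0.34 and 0.95 ± 0.32 and were not called.

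Ido1 was near the floor of the arrays. Its single probe set had 19.1 and 71.9 in the G-MDSC arrays and 40.8 and 104.5 in the neutrophil arrays, above the 40th percentile in 1 of 4 arrays, G-MDSC replicate 2. The arrays of the groups overlapped, and no difference was detectable at this signal. Of 21 other genes of tryptophan and kynurenine metabolism, 15 were tested, and 2 were higher and 2 lower in G-MDSC. Their median was -0.73, against -0.18 for all genes tested. Ahr, the aryl hydrocarbon receptor, which kynurenine can bind, had 3414 and 6087 in the G-MDSC arrays against 541 and 1054 in the neutrophil arrays (2.57 ± 0.40). Haao, an enzyme further down the kynurenine pathway, had 419.8 and 313 in the G-MDSC arrays against 47.0 and 65.9 in the neutrophil arrays, where both arrays were at or below their 40th percentile. With those signals raised to their percentiles, the G-MDSC mean was 3.78-fold higher, or 2.55-fold with the highest of the 4 percentiles as the floor. These bounds carry no interval. Haao passed the filter only through the G-MDSC arrays, where it was high, so its call (limma adjusted p = 0.00755) is not separate support. The call was lost without G-MDSC replicate 1 (adjusted p = 0.35) and without G-MDSC replicate 2 (0.148). Wars, which charges tRNA with tryptophan, had 289.6 and 312 in the G-MDSC arrays against 652 and 767 in the neutrophil arrays (-1.19 ± 0.34). Slc3a2, the heavy chain of amino acid transporters that carry tryptophan, had 2532 and 2927 in the G-MDSC arrays against 7103 and 5411 in the neutrophil arrays (-1.18 ± 0.30). Both calls were lost without either G-MDSC array and with median scaling, and that of Wars also with no filter, with quantile normalization and with each probe set fitted separately.

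The ectoenzymes that make adenosine were not called by their brightest probe sets. Entpd1 had 2043 and 2542 in the G-MDSC arrays against 3965 and 3952 in the neutrophil arrays, without overlap. The difference of -0.79 ± 0.30 had a 95% interval of -1.45 to -0.14, but missed the threshold (SE, n = 2 in each group; limma adjusted p = 0.0981). The other 2 probe sets of Entpd1 lay below it too, and the probe sets disagreed in size. The second had 504 and 518 in the G-MDSC arrays against 1893 and 1564 in the neutrophil arrays and differed by -1.72 ± 0.32 when fitted separately (adjusted p = 0.00843). The remaining one had 643 and 535 in the G-MDSC arrays against 2029.6 and 839.6 in the neutrophil arrays, at -1.13 ± 0.43 (adjusted p = 0.122). With the median of the 3 probe sets Entpd1 was at -1.58 and was called (adjusted p = 0.0058). It was also called at -0.79 without neutrophils replicate 1 (adjusted p = 0.0293).

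Nt5e, which acts on the AMP that CD39 leaves, had signals of 176 and 166 in the G-MDSC arrays against 320.3 and 304 in the neutrophil arrays. The arrays of each group lay close together and apart from the other group's, at a low signal. The difference of -0.81 ± 0.40 did not pass (limma adjusted p = 0.2), with a 95% interval of -1.69 to 0.06. Its 2 other probe sets were at 8.21 and 32.5 in the G-MDSC arrays against 7.03 and 15.4 in the neutrophil arrays, and at 51.1 and 43.2 in the G-MDSC arrays against 12.97 and 112 in the neutrophil arrays, too dim for a test.

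Of 37 other genes of extracellular nucleotide and adenosine metabolism, 28 had a probe set with a single symbol and 27 were tested. Those without such a probe set, among them Adora1, Adora2a, Adora2b, Cd38, Enpp1 and Enpp2, were not analysed, whatever their signal. Of the 27, 6 were higher and 2 lower in G-MDSC, with a median of -0.23, close to the -0.18 of all genes tested. The 3 largest rises were of enzymes. Acpp, an acid phosphatase that can release adenosine from AMP, had 2894 and 2634 in the G-MDSC arrays against 280.1 and 95.1 in the neutrophil arrays (3.94 ± 0.44; 4.64 without neutrophils replicate 1 and 3.23 without replicate 2). Ada, adenosine deaminase, which removes adenosine, had 1852 and 1059.7 in the G-MDSC arrays against 113 and 176 in the neutrophil arrays (3.17 ± 0.39). Entpd3, a relative of CD39, had 4017 and 5686 in the G-MDSC arrays against 1224 and 482 in the neutrophil arrays (2.61 ± 0.42; 3.27 without neutrophils replicate 1 and 1.95 without replicate 2). P2rx4, an ATP-gated channel, had 525 and 588 in the G-MDSC arrays against 2117 and 1484 in the neutrophil arrays (-1.65 ± 0.33), a call lost with the median of probe sets (-0.90, adjusted p = 0.136). Ahcy, which splits S-adenosylhomocysteine to adenosine and homocysteine, had 602 and 471 in the G-MDSC arrays against 1210.03 and 1534 in the neutrophil arrays (-1.33 ± 0.33), which did not pass without G-MDSC replicate 1 (adjusted p = 0.0763) and without G-MDSC replicate 2 (adjusted p = 0.223).

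**Figure D2:**
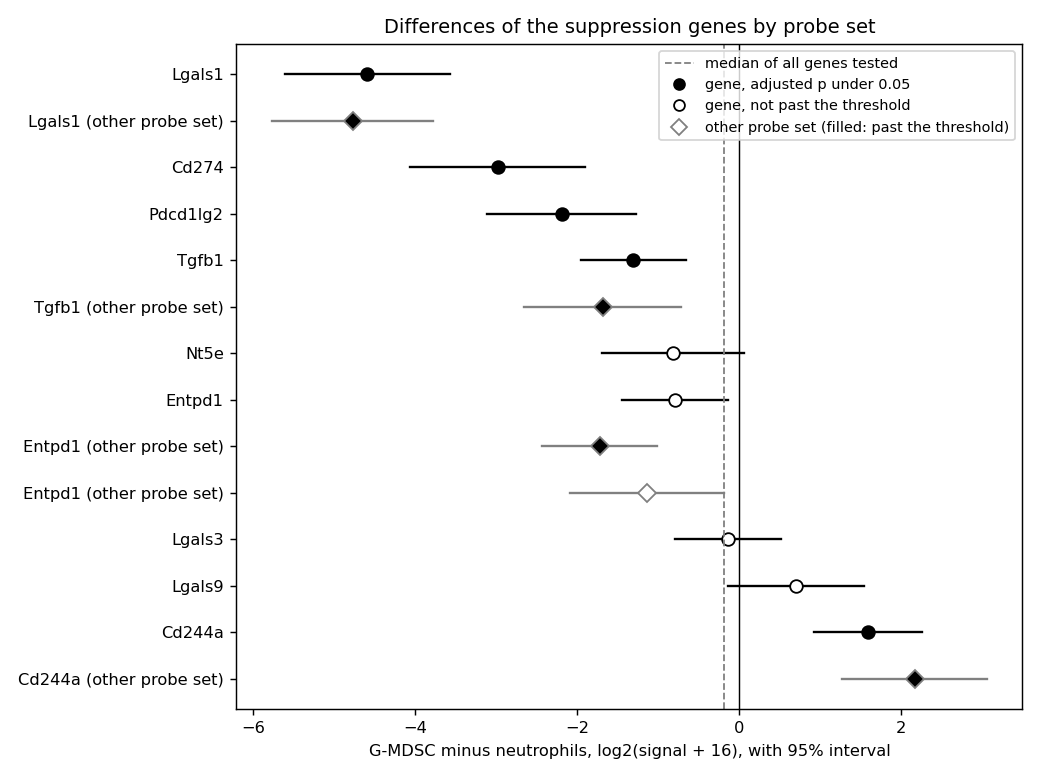
Log2 difference of G-MDSC minus neutrophils (horizontal axis) with its 95% interval for each tested gene (circles) and for its other kept probe sets (diamonds), filled where limma's adjusted p was under 0.05. The dashed line is the median of all genes tested, -0.18. Both probe sets of Lgals1, Tgfb1 and Cd244a lie on the same side, and the 3 of Entpd1 run from -1.72 to -0.79.

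Cd244a was the 1 gene of the 10 that was higher in G-MDSC by the test, and both of its probe sets were. The brighter had 6387 and 6969.6 in the G-MDSC arrays against 2516 and 1914 in the neutrophil arrays, with no overlap. The difference was 1.60 ± 0.30 (SE, n = 2 in each group; limma adjusted p = 0.00488), or 3.03-fold higher (95% interval 1.91-fold to 4.80-fold). The other probe set had 2975 and 1869.7 in the G-MDSC arrays against 707 and 368 in the neutrophil arrays, a difference of 2.17 ± 0.40 (adjusted p = 0.00841). Among all genes tested, 591 had a higher difference than Cd244a.

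The ligand of 2B4 moved the other way. Cd48 had signals of 401 and 382 in the G-MDSC arrays against 1682 and 3555 in the neutrophil arrays, a difference of -2.60 ± 0.38 (limma adjusted p = 0.00124). Of 15 other genes of the SLAM family and its signalling, 13 were tested, and 6 were lower and 0 higher in G-MDSC, with a median of -1.10 against -0.18 for all genes tested. At an unadjusted p under 0.05 there were 2 above 0, Cd84 (0.89 ± 0.29), another receptor of the family, and Csk (0.98 ± 0.31), a kinase that restrains Src kinases. Slamf8, a family member of macrophages, had 55.4 and 59.2 in the G-MDSC arrays against 537 and 1029 in the neutrophil arrays (-3.38 ± 0.45). With a common floor for low signals the difference was -2.49. Ly9 had 182 and 202 in the G-MDSC arrays against 977 and 1121 in the neutrophil arrays (-2.35 ± 0.34). The phosphatases Ptpn6 and Inpp5d, which act downstream of such receptors, differed by -0.01 ± 0.30 and 0.55 ± 0.48 and were not called. The 12 of 21 macrophage markers that were lower in the same arrays are those given above, and their part in these falls was not tested.

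The 3 galectins differed from one another. Lgals1, galectin-1, which binds T cell glycoproteins, showed the largest difference of the 10 genes. It had 1674 and 571 in the G-MDSC arrays against 18445 and 31164 in the neutrophil arrays, so the groups lay far apart although the arrays within each differed. The difference was -4.59 ± 0.46 (SE, n = 2 in each group; limma adjusted p = 0.000105), or 24.1-fold lower (95% interval 11.9-fold to 48.7-fold). It was 40.9-fold lower without G-MDSC replicate 1 and 14.2-fold lower without G-MDSC replicate 2. The second probe set had 463 and 341 in the G-MDSC arrays against 6918 and 18435 in the neutrophil arrays, at -4.77 ± 0.44 (adjusted p = 0.000307). Of all 13139 genes, 44 had a lower difference.

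Lgals3, galectin-3, had 18301 and 18872.5 in the G-MDSC arrays against 20211 and 20625 in the neutrophil arrays, and the 4 signals lay close together. The arrays did not overlap, yet the difference was -0.14 ± 0.30 (limma adjusted p = 0.786), with a 95% interval of -0.79 to 0.52, and it turned to 0.058 with quantile normalization and 0.040 with median scaling. A change of up to 1.73-fold lower or 1.43-fold higher lies within that interval. Lgals9, galectin-9, a ligand of TIM-3, had 3362 and 6675 in the G-MDSC arrays against 2317 and 3628 in the neutrophil arrays, and the groups overlapped. The difference of 0.71 ± 0.38 did not pass (limma adjusted p = 0.247; 95% interval -0.13 to 1.54). Its size depended on single arrays of both groups. It was 1.198 and 0.212 without G-MDSC replicates 1 and 2, and 0.384 and 1.03 without neutrophils replicates 1 and 2. Havcr2, the TIM-3 gene, which was chosen for mention after its values were seen, had 53.2 and 62.9 in the G-MDSC arrays against 380 and 228 in the neutrophil arrays (-2.07 ± 0.53).

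Of 14 other galectins and genes of galectin binding, 11 were tested, and 3 were lower and 1 higher in G-MDSC. The median was -0.43, against -0.18 for all genes tested. No other galectin gene was called: Lgals2, Lgals4, Lgals8 and Lgals12 differed by -0.30 ± 0.67, 1.03 ± 0.40, -0.68 ± 0.31 and -0.56 ± 0.47. The gene that rose was Gcnt1, which builds branched O-glycans, with 4276 and 5003 in the G-MDSC arrays against 961 and 706 in the neutrophil arrays (2.47 ± 0.31). Lgals3bp, a secreted protein that binds galectin-3, had 164 and 428 in the G-MDSC arrays against 985 and 1523 in the neutrophil arrays (-2.13 ± 0.45), or -1.48 without G-MDSC replicate 1, where the call was lost (adjusted p = 0.0879), and -2.79 without G-MDSC replicate 2. Itgb1, an integrin chain that galectins bind, had 542 and 621 in the G-MDSC arrays against 2017 and 2055 in the neutrophil arrays (-1.78 ± 0.31). Lamp1, a heavily glycosylated lysosomal protein, had 7070.2 and 7474 in the G-MDSC arrays against 15238 and 14202 in the neutrophil arrays (-1.02 ± 0.29), which did not pass without G-MDSC replicate 1 (adjusted p = 0.314), without G-MDSC replicate 2 (0.249), with no filter (0.0774), with each probe set fitted separately (0.0515) and with median scaling (0.14).

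**Figure D3:**
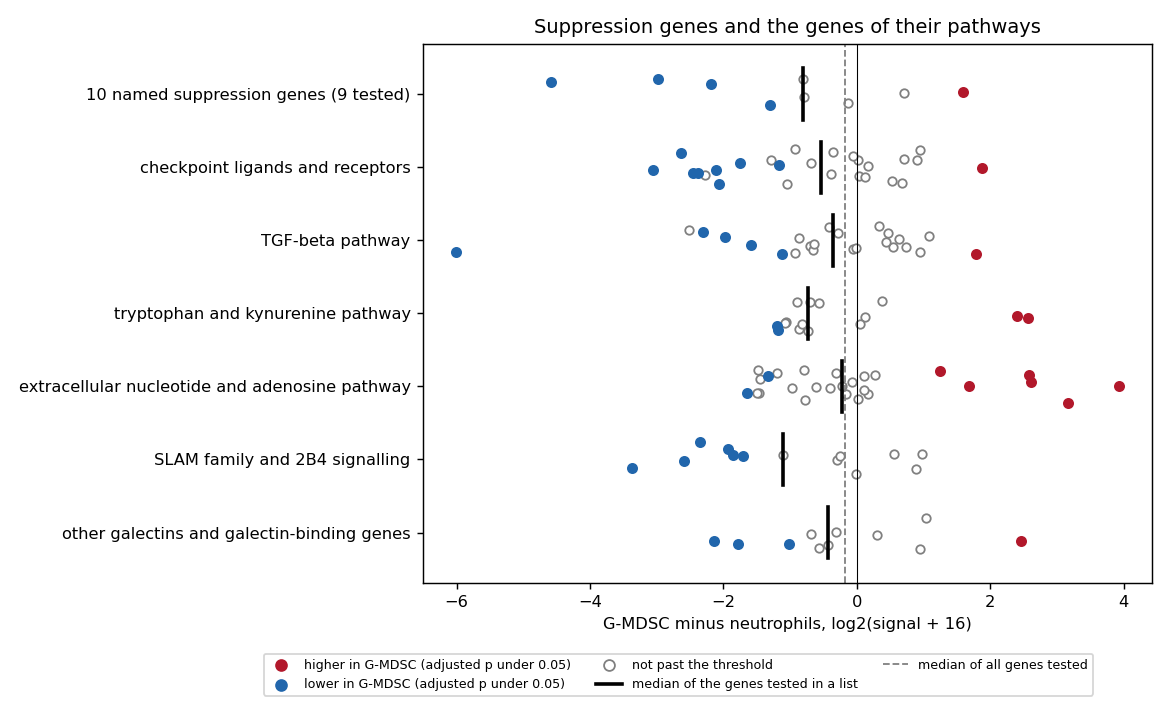
Log2 difference of G-MDSC minus neutrophils (horizontal axis) for the genes tested among the 10 and in each of the 6 related lists, 1 point per gene, red where higher and blue where lower in G-MDSC at an adjusted p under 0.05. Black bars are list medians and the dashed line is the median of all genes tested. The adenosine list has 6 red points and the SLAM list has 0 red and 6 blue.

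All calls among these genes rest on limma's moderation across genes. Without it 0 of the 9 tested genes were called, as was 0 of all genes, with 2379 genes at an unadjusted p under 0.05. Without the intensity trend, Lgals1 was the 1 gene of the 9 still called. With 2 arrays a group the smallest p of an exact permutation test is 0.33, and no such test was run.

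**Figure D4:**
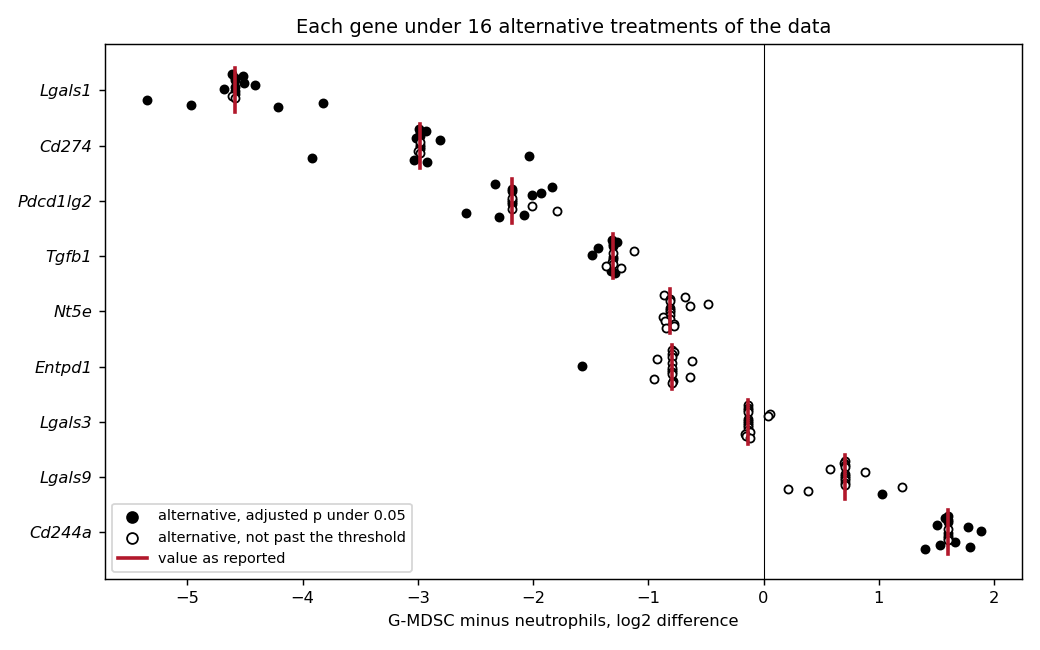
Log2 difference of each tested gene (rows) under 16 alternative treatments of the data, filled where the adjusted p was under 0.05, with the reported value as a red bar. The differences of Lgals1 run from -5.35 to -3.83 and those of Cd274 from -3.92 to -2.04, and the points of Lgals3 lie on both sides of 0.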

How the data were processed

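Total RNA (100 ng) was measured on 1 array per sample. The deposited table holds linear signal intensities. Per the submitters' processing notes, GCOS 1.4 and MAS5 were used. After trimming 2% of probe sets at each end, the mean intensity was 500 in every array, so the authors' scaling was kept. Detection calls were not used here. Precision is limited by the number of arrays, 2 per group. Of 45101 probe sets, 34945 have 1 gene symbol in the platform annotation, 932 have several and 9160 have none, and 64 are controls. Probe sets with more than 1 symbol stayed unnamed.

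Signals were used as log2(signal + 16). Probe sets above the 40th percentile of their array in at least 2 of 4 arrays were kept, and 14 of the 17 probe sets of the 10 genes were. Each gene was represented by its brightest kept probe set. Groups were compared with limma 3.58.1 in R 4.3.3 (lmFit, eBayes with an intensity trend, two-sided, Benjamini-Hochberg over 13139 genes, threshold 0.05). The functions were tested on simulated data. Tables and figures were made with Python 3.11.15, pandas 2.3.3, numpy 2.4.6 and matplotlib 3.10.9. For a group with no array above its own 40th percentile, the fold is a bound, in which each dim signal is raised to that percentile if lower before log2 means are compared.

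The 10 genes, the 6 related lists and the 7 marker lists were chosen with earlier results of these data known. Named from each related list were up to 3 called genes per direction with the largest differences, besides genes described as not called and Havcr2. Alternatives were pseudocounts of 1 and 64, no filter and the 60th percentile, quantile normalization, median scaling, no intensity trend, the median of probe sets, separate fits per probe set, a block for the replicate number, and omission of each array in turn. Probe sets stayed those of the reported fit, except under another filter or probe set rule. A common floor for low signals and a fit without moderation were added after seeing the data.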

Additional observations from a re-analysis of the deposited data

How the results depend on the processing

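Under 16 alternatives no tested gene of the 10 turned its direction, except Lgals3, which was at 0.058 with quantile normalization and 0.040 with median scaling. Itgam turned to 0.10 with median scaling and ran from -0.33 to 0.18 when 1 array was left out. Of the 10 genes, those called were 1 higher and 4 lower. They were 0 higher and 1 lower without the intensity trend, and 0 in both directions with a common floor for low signals and with no moderation, where all genes and all 6 lists also had 0 called. With the floor 3224 genes, and with no moderation 2379 genes, were at an unadjusted p under 0.05. When 1 array was left out, Pdcd1lg2 ran from -2.58 to -1.79 and Tgfb1 from -1.37 to -1.24. Neither was called without G-MDSC replicate 1, and Tgfb1 was also not called without G-MDSC replicate 2. Nt5e was called under none of the 16. The 24 called genes named for their size from the related lists did not turn direction in any alternative. Of these, 15 kept their call in all but the fits without the trend, with the floor or with no moderation. Genes named as not called, and Havcr2, were not followed through the alternatives. Median scaling moved the median of all genes from -0.18 to -0.01 and quantile normalization moved it to 0.04.

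Without the intensity trend 148 genes were higher and 331 lower in all. The counts higher and lower in G-MDSC were then 0 and 2 for checkpoint molecules, 0 and 1 for TGF-beta, 1 and 0 for tryptophan, 2 and 0 for adenosine, 0 and 3 for SLAM, and 1 and 0 for galectins. Neutrophil markers higher in G-MDSC numbered 3 without the trend, 8 with quantile normalization, and 0 with the floor or no moderation. With quantile normalization 2 checkpoint molecules and 1 SLAM gene were higher and 1 tryptophan gene lower. With median scaling 0 tryptophan genes were lower, and 2 galectin-related genes were higher. With the median of probe sets 1 adenosine gene was lower and 1 SLAM gene higher. With no filter, and with a fit per probe set, 1 tryptophan gene was lower. The cause of these shifts was not tested.

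The labels give both groups replicates 1 and 2 but nothing that pairs them, and across genes the difference of replicate 1 minus 2 correlated at 0.24 between the groups. With the replicate number as a block, 1699 genes were higher and 1607 lower. The blocked fit had 3 checkpoint, 3 TGF-beta and 2 SLAM genes higher, and Entpd1 was called at -0.79 (adjusted p = 0.04), while the 5 calls of the 10 genes were kept.

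Without 1 array at a time, calls over all genes ran from 429 to 2419 higher and from 561 to 3472 lower, the lowest without a G-MDSC array and the highest without neutrophils replicate 1. Higher counts ran from 1 to 5 for checkpoint molecules, 0 to 6 for TGF-beta, 1 to 2 for tryptophan, 3 to 6 for adenosine, 0 to 3 for SLAM and 1 to 2 for galectins. Lower counts ran from 6 to 13, 2 to 7, 0 to 5, 1 to 8, 3 to 7 and 1 to 4 in the same order. In these fits a lone array is assumed to vary like the other group. Signals near the floor, highest in neutrophils replicate 2, limit what can be said of Ido1, Nt5e and Pdcd1lg2. Low G-MDSC signals also limit the size of the differences of Slamf8, Pvr, Ctla4 and Pmepa1. With the common floor these were -2.49, -2.42, -1.97 and -1.10, against -3.38, -3.05, -2.46 and -1.97 as reported.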
